A study of Mus musculus with 6 samples.

Results

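The methyl-CpG-binding proteins read DNA methylation: they bind cytosines that are methylated in the CpG sequence, or belong to the families that do. The genes were chosen by name, as 9 gene symbols: Mbd1 to Mbd6 of the methyl-CpG-binding domain (MBD) family, and Zbtb33, Zbtb4 and Zbtb38, zinc finger genes of the ZBTB family. Every probe set whose only gene symbol in the platform annotation was one of these was taken, which gave 21 probe sets of 8 genes, out of 45037 probe sets and 18193 genes on the array. No probe set carried Mbd5 as its only symbol, so Mbd5 has no value here. One further probe set, 1443677_at, is annotated to both Zbtb38 and E030011O05Rik and was left out of the counts; its log2 change was 0.10 ± 0.16 (SE).

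As background, these proteins work as adaptors. MBD1, MBD2 and the ZBTB members bind methylated CpG and bring in histone deacetylases or histone methyltransferases, so that methylated promoters stay silent. MBD2 and MBD3 are alternative subunits of the NuRD complex, which moves nucleosomes and removes acetyl groups from histones, and mammalian MBD3 does not itself prefer methylated DNA. MBD4 is a DNA glycosylase that removes the thymine left when a methylated cytosine is deaminated. MBD5 and MBD6 carry an MBD that does not select methylated CpG and join the PR-DUB complex, a deubiquitinase of histone H2A. ZBTB33, known as Kaiso, binds methylated CGCG or an unmethylated sequence, TCCTGCNA, and ZBTB4 and ZBTB38 are its relatives.

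The cells were C2C12, an established mouse myoblast line that can fuse into muscle fibres, and cells for all 6 samples were seeded at 1500 cells per square centimetre in medium with 10% newborn calf serum. After 1 day, 3 were left untreated and 3 were given 10 µM 5-azacytidine (5AC), a cytidine analogue that traps DNA methyltransferases once it is in DNA. Total RNA was taken from the cells after 3 days and measured on Affymetrix mouse genome arrays, 1 per sample. The labels give no other difference between the groups. Whether the replicates of a group were grown apart is not in the labels, so the p-values cover the scatter among these 6 arrays, possibly technical scatter. The comparison asks whether RNA of the proteins that read methylation differs in cells treated with an inhibitor of the enzymes that write it.

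The arrays were alike in level, with medians of 20.32 to 21.01, and log2 values correlated at 0.965 to 0.971 within groups and 0.949 to 0.954 between groups. Of 8 myoblast markers, all lay above the median probe-set intensity of 20.7, and 5 fell, among them Myod1, Itga7 and Vcam1 (log2 changes of -0.54, -1.20 and -1.03). Proliferation genes fell in 13 of 13 cases, with a median log2 change of -0.67; Ccnb2, Aurkb and Birc5, all of mitosis, were at -1.39, -0.90 and -0.83. Genes of fusing muscle rose in 10 of 12, with a median of 1.62; the contractile genes Tnnt3, Myh3 and Tnnc2 were at 2.54, 2.53 and 2.33. The summed intensity of the proliferation list was 16574 to 17156 untreated and 10468 to 11402 with 5AC, and that of the muscle list 1589 to 2035 and 5927 to 6522. The part of cell division and differentiation in the members' changes was not tested, and fewer cells of a type cannot be told apart from less RNA per cell. Endothelial markers, averaged over the 6 arrays, were below the median probe-set intensity in 6 of 6 cases (summed intensity 32.4 to 49.7; Kdr reached a 5AC mean of 21.8), with Pecam1 at 3.68 ± 3.50 and 0.519 ± 0.319. Leukocyte markers summed to 148 to 166 untreated and 146 to 168 treated, with Itgam at 5.31 ± 1.15 and 3.25 ± 4.02. Of these 7 markers 4 were below the median probe-set intensity. Csf1r, at 63.7 ± 7.93 and 56.1 ± 2.54, Adgre1, at 30.8 ± 8.03 and 34.2 ± 1.32, and Cd68, at 21.8 ± 1.55 and 29.4 ± 6.59, were above it. In both of these lists 0 genes passed the threshold (limma), and 0 had an unadjusted p under 0.05. Of 9 epithelial markers Krt8 and Krt18 rose and Krt19 fell (log2 changes of 6.89, 6.47 and -1.17; 5.98, 4.93 and -1.11 with 16 in place of 1 added before the log). The other 6 did not pass, among them Epcam at -0.04 and Cldn4 at 0.74, which passed with 16 added (0.45, adjusted p = 0.0445). Of 6 adipocyte markers Pparg rose and Lpl fell (log2 changes of 0.83 and -0.62).

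Of the 8 measured genes of methyl-CpG-binding proteins, Mbd1 and Mbd3 passed the threshold, in opposite directions. Mbd1 rose 1.67-fold, a log2 change of 0.74 ± 0.07 (SE), and Mbd3 fell to 0.771 of its untreated level, a log2 change of -0.38 ± 0.08. Mbd6 had the largest difference, 2.10-fold, but its SE on the log2 scale was 0.26 and its adjusted p was 0.05004, just short of the threshold. Of the 9 probe sets of Zbtb33, Zbtb4 and Zbtb38, 0 passed (limma, where 1 had an unadjusted p under 0.05 upward and 1 downward). In all, 1 of 21 member probe sets was higher and 1 lower (limma, Benjamini-Hochberg adjustment over all 45037 probe sets, adjusted p under 0.05). Over the whole array 16.9% of probe sets passed, 8.15% higher and 8.75% lower, so the members' share, 9.52%, was not above that of the array.

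Calls were fewer among dim probe sets over the whole array as well, at 4.25%. Of the 21 member sets, 7 had a mean intensity below the array's median, and 0 of these passed or had an unadjusted p under 0.05 (limma). Among the 14 brighter ones 2 passed, against 29.6% of all brighter probe sets. Untreated and treated arrays did not overlap for 11 of the 21, against 36.8% over the array, and for 11 of the 14 brighter ones, against 57.7% of brighter probe sets. Each gene was then represented by its brightest probe set, with p-values still adjusted over all 45037. On this count 1 of 8 members was higher and 1 lower, where 11.6% and 10.8% of all genes were, 22.4% in all. Of these 8 probe sets 0 were dimmer than the median, against 6869 of the 18193 over all genes. The median log2 change over the 21 was 0.03, and over all probe sets -0.01.

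**Figure D1:**
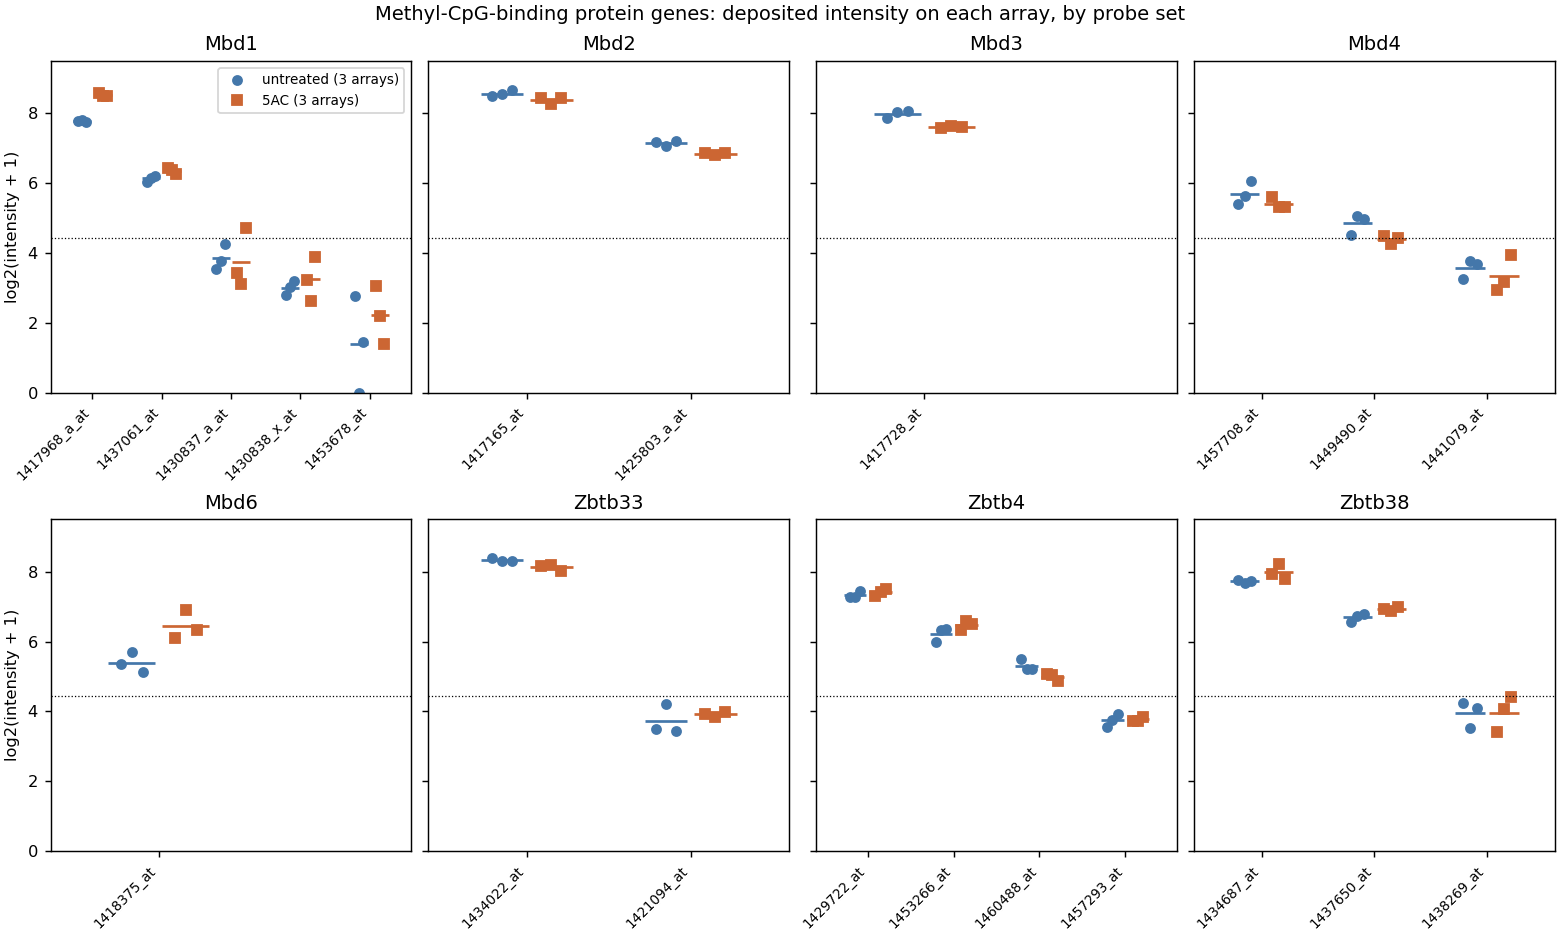
Deposited intensity of the 21 member probe sets on each array, as log2(intensity + 1), with values below 0 set to 0; circles are untreated and squares 5AC arrays, short lines are group means over 3 arrays, and the dotted line is the median probe-set intensity, 20.7. The groups do not overlap for 11 of the 14 brighter probe sets, against 57.7% of brighter probe sets over the array. Mbd1 1417968_a_at, Mbd3 and Mbd6 are among these 11, while the 7 dimmer probe sets overlap between groups.

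Mbd1 encodes the member that, besides its MBD, has CXXC zinc fingers, including a finger that binds unmethylated CpG, and that works with the H3K9 methyltransferase SETDB1. Its brightest probe set, 1417968_a_at, read 219, 224 and 215 on the untreated arrays and 380, 362 and 360 on the 5AC arrays. The groups were far apart relative to their spread, with means of 219 ± 4.27 and 367 ± 10.8 (SD, n = 3 each, as for all means that follow), and the log2 change of 0.74 had an adjusted p of 0.00357 (limma). The second probe set in brightness, 1437061_at, read 65.2, 70.3 and 73.1 untreated and 85.7, 81.9 and 75.1 treated. All treated arrays were again higher, but the log2 change was 0.21 ± 0.09 and did not pass (adjusted p = 0.181, 95% interval -0.01 to 0.44). The changes of these probe sets differed by 0.53 on the log2 scale. An exact permutation test over arrays gave a two-sided p of 0.1, the smallest that 3 against 3 arrays allow, and 0.3 after Benjamini-Hochberg adjustment over the 6 such pairs compared within genes. The other 3 probe sets of Mbd1 were near background, at 2.03 to 13.8 untreated and 4.16 to 14.2 treated. Their groups overlapped and their intervals, the widest from -1.26 to 2.88, do not settle a direction; with 16 added their log2 changes were -0.02 to 0.13.

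Mbd2 and Mbd3 encode the alternative MBD subunits of NuRD. Mbd2, the one that binds methylated DNA, was read by 1417165_at at 358, 377 and 404 untreated and at 347, 308 and 347 treated. Its second probe set, 1425803_a_at, read 144, 132 and 148 untreated and 115, 112 and 115 treated. Both sets had every treated array below every untreated one. Their log2 changes were -0.19 ± 0.09 (adjusted p = 0.250) and -0.30 ± 0.08 (adjusted p = 0.0550), and neither passed with limma. The second passed in 5 of 9 alternative settings, with adjusted p of 0.0486 or lower there, and in 0 of 6 fits that left out an array.

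Mbd3 had 1 probe set, 1417728_at, with 233, 262 and 265 on the untreated and 190, 200 and 194 on the 5AC arrays. The groups did not overlap, the means were 253 ± 17.8 and 195 ± 5.13, and the log2 change of -0.38 had an adjusted p of 0.0373 (limma, 95% interval -0.59 to -0.17). Over the 6 fits that left out 1 array, the change was -0.34 to -0.43 and the adjusted p 0.0478 to 0.120 (limma). The call was lost in 5 of these 6 fits and remained only without untreated replicate 1, which gave the 0.0478. The Mbd3 promoter is shown because this was the member that fell and has a single start in the RefSeq table (GRCm38.p6). These are the 250 bases before the start, at chr10:80399532-80399781 on the minus strand, with each CG in capitals, the positions that can carry CpG methylation; the arrays did not measure methylation.

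Mbd3: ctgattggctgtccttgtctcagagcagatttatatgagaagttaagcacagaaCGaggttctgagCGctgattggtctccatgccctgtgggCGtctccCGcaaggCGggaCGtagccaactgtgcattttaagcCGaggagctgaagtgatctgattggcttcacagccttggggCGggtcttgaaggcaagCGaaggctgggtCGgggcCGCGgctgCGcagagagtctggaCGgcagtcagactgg

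This window held 14 CpG, as many as or more than 72.7% of the 32851 promoter windows in the table, whose median was 6.

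Mbd4, the glycosylase gene, had 3 probe sets, of which 1441079_at was below the median intensity and 1449490_at close to it. The brightest, 1457708_at, read 41.7, 48.4 and 65.8 untreated and 47.8, 38.5 and 38.9 treated, which overlap. In 1449490_at the untreated arrays, at 21.8, 32.5 and 30.4, lay above the treated ones, at 21.5, 18.3 and 20.6, by a narrow gap. The third, 1441079_at, was at 11.0 ± 2.19 and 9.64 ± 4.11. The 3 log2 changes were -0.29, -0.45 and -0.22 (-0.22, -0.28 and -0.08 with 16 added) with adjusted p of 0.406, 0.156 and 0.695 (limma). The interval of the second ran from -0.89 to -0.01, so a fall of the size seen for Mbd3 lies within it.

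Mbd6 had 1 probe set, 1418375_at, and, on the log2 scale, the largest SE among the brighter member probe sets. It read 39.9, 50.7 and 34.0 untreated and 68.4, 120 and 80.2 treated, so every treated array was above every untreated one, and 5AC replicate 2 was the highest. The log2 change was 1.07 ± 0.26 with a 95% interval of 0.41 to 1.73 and an adjusted p of 0.05004 (limma). It passed in 4 of 10 alternative settings, with adjusted p of 0.00784 to 0.0324, among them an offset of 16 (log2 change 0.85). It passed in 0 of 6 fits that left out an array, where the change was 0.84 to 1.24 and the adjusted p 0.0687 to 0.134. The start of the first Mbd6 window is preceded by 3 CGCG, the pair of CpG that Kaiso binds when methylated, and each is shown within 30 bases of the minus strand of chr10 (GRCm38.p6), at 127289158-127289187, 127289134-127289163 and 127289078-127289107, with the motif in capitals.

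Mbd6 CGCG 1: gcccagatccttcCGCGgagggcgggtggg
Mbd6 CGCG 2: ggtgggggggggcCGCGtggggtgtttgtt
Mbd6 CGCG 3: ggggaggggtaggCGCGctcccgcatgcgc

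Promoter windows of 7 of the 9 genes matched the RefSeq table, 11 windows in all, and those of Mbd1 and Mbd2 did not. Both strands were searched over the 250 bases before each start. CGCG, which reads the same on both strands, was in 7 of the 11 windows, of 5 genes, and in 33.8% of all windows. The 2 Mbd6 windows overlap and share a CGCG. Member windows with CGCG held 14 to 32 CpG and those without held 4 to 16, against a median of 6 over all windows. The share of CGCG was not compared at equal CpG count. The Kaiso sequence TCCTGCNA was in 0 of the 11 and in 4.03% of all windows. The CpG count of the members ran from 4 in the second Mbd5 window to 32 in the second Mbd6 window.

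Zbtb33 encodes Kaiso. Its bright probe set, 1434022_at, read 333, 315 and 314 untreated and 284, 294 and 257 treated, without overlap. The log2 change of -0.21 ± 0.08 did not pass (limma, adjusted p = 0.174), and its interval was -0.42 to 0.00. It passed in 1 alternative setting, the fit with an intensity trend (adjusted p = 0.0355). The second, 1421094_at, was dim, at 12.5 ± 4.24 and 14.1 ± 0.684, with overlapping groups and a log2 change of 0.21 ± 0.23 (0.09 with 16 added, adjusted p = 0.614).

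Zbtb4 encodes a Kaiso relative that binds a single methylated CpG, and its probe sets gave changes of different sign, with 0 past the threshold. The brightest, 1429722_at, read 153, 155 and 173 untreated and 158, 170 and 181 treated, with overlap. The second, 1453266_at, was at 74.3 ± 10.3 and 87.9 ± 7.79. The third, 1460488_at, read 44.1, 36.0 and 36.4 untreated and 32.6, 32.0 and 28.1 treated, without overlap, in the other direction. Their log2 changes of 0.08, 0.25 and -0.32 did not pass (limma, adjusted p of 0.622, 0.312 and 0.140). The last passed in 1 alternative setting, with brighter probe sets only (adjusted p = 0.0450). 1429722_at and 1460488_at differed by 0.40 in log2 change, with an exact two-sided permutation p of 0.1, the smallest possible (0.3 adjusted over the 6 pairs). The test could not reach 0.05 here either and decides nothing. The fourth, 1457293_at, was dim at 12.5 ± 1.75 and 12.6 ± 0.685.

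Zbtb38 encodes the other Kaiso relative. In 1434687_at the untreated arrays were at 217, 205 and 211 and the treated ones at 244, 299 and 219, all higher but with 5AC replicate 2 well above the rest. In 1437650_at they were at 94.2, 105 and 109 untreated and 121, 116 and 127 treated. The log2 changes were 0.26 ± 0.13 and 0.24 ± 0.09, and neither passed (limma, adjusted p of 0.276 and 0.148). Without 5AC replicate 2 they were 0.13 and 0.27. The second passed in 1 alternative setting, with brighter probe sets only (adjusted p = 0.0428). The unadjusted intervals were -0.08 to 0.59 and 0.01 to 0.46. The third, 1438269_at, was dim, at 14.9 ± 3.79 and 15.1 ± 5.27, with overlapping groups.

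**Figure D2:**
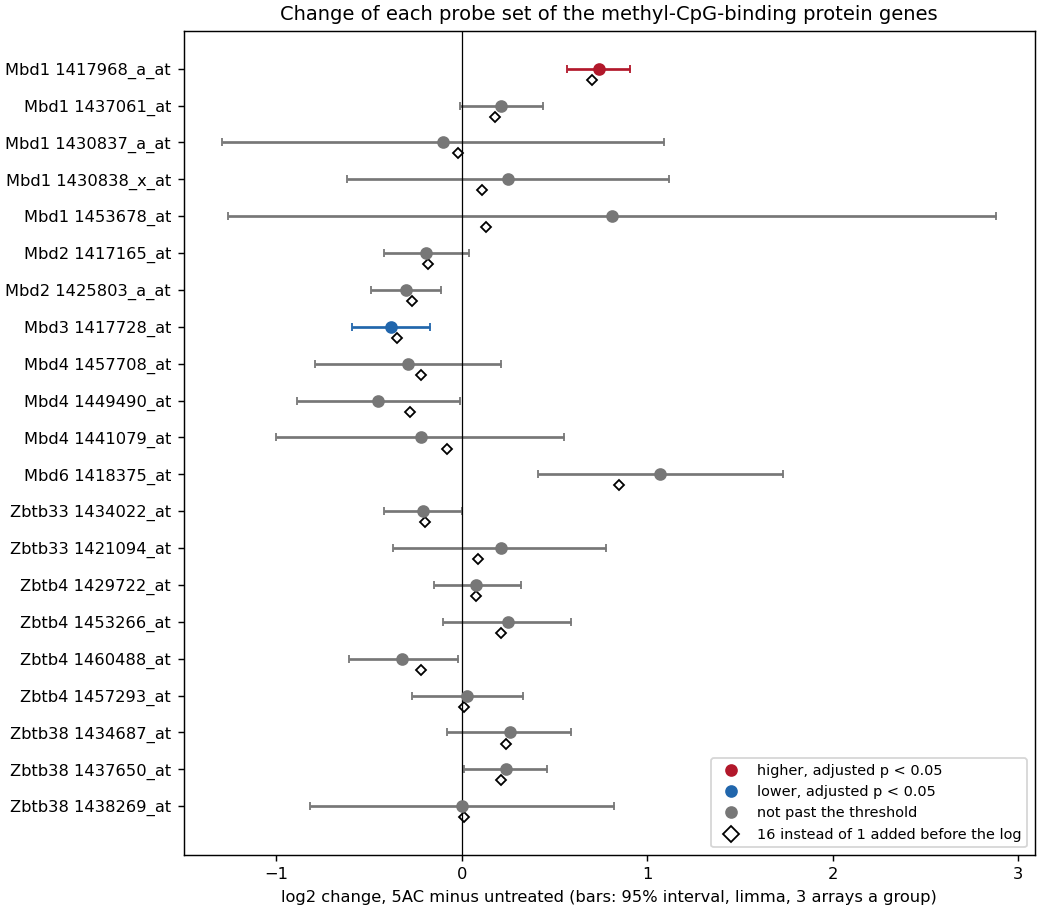
Log2 change, 5AC minus untreated, of each member probe set with its 95% interval from the fit over all probe sets (3 arrays a group); diamonds give the change with 16 instead of 1 added before the log. Mbd1 1417968_a_at and Mbd3 1417728_at are the coloured points, at 0.74 and -0.38, and Mbd6 lies at 1.07 with an interval of 0.41 to 1.73.

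RNA of genes whose proteins work with the members changed in part, and in both directions. Here each gene stands for its brightest probe set, and counts are of genes past the same threshold (limma). Over all genes 22.4% passed, with a median log2 change of 0.01. That share includes 6869 of 18193 genes dimmer than the median, and dim probe sets passed in 4.25%, against 29.6% of brighter ones. The NuRD list and that of NCoR and SIN3 corepressors held 0 dim genes, so 29.6% is the closer share for them. The other lists held 1 to 4 dim genes each. Of the 13 NuRD genes 3 rose and 1 fell, with a median of 0.08. The risers were the MTA subunits Mta3, from 67.0 ± 4.67 to 138 ± 15.9, and Mta2, from 102 ± 10.3 to 154 ± 9.82, and the scaffold gene Gatad2b, from 123 ± 11.4 to 174 ± 13.3. Cdk2ap1, a small subunit, fell from 2313 to 1741, a log2 change of -0.41 (named after its value was seen). The remodelling helicase gene Chd4 was at 0.27 ± 0.08 (adjusted p = 0.0930), and the deacetylase genes Hdac1 and Hdac2 at -0.12 and 0.18 (adjusted p of 0.342 and 0.171).

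For MBD1 the partner list held 8 measured genes of 10, of which 1 rose and 2 fell, with a median of 0.15. Atf7ip, which links MBD1 to SETDB1, rose from 150 ± 6.22 to 206 ± 7.35 (log2 change 0.46 ± 0.07, adjusted p = 0.0148). Cbx5, the heterochromatin protein HP1 alpha, fell from 671 ± 25.7 to 358 ± 7.22, and Chaf1b, a subunit of the replication-coupled histone chaperone CAF-1, from 298 ± 2.63 to 192 ± 11.3. Setdb1 itself was at 172 and 193, a log2 change of 0.16 ± 0.07 (adjusted p = 0.216). Among 12 measured corepressor genes of the NCoR and SIN3 complexes, 1 rose and 2 fell, with a median of -0.09: Sin3b rose by 0.48, and Gps2 and Sap130 fell by 0.66 and 0.36.

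The repair pathway in which MBD4 acts had 0 higher and 4 lower of 20 measured genes (limma; 3 and 6 with an unadjusted p under 0.05), with a median of -0.10. The fallers were the DNA ligase gene Lig1, from 361, 376 and 385 to 212, 195 and 233, the replication clamp gene Pcna, from 4588 ± 133 to 3229 ± 195, Parp1, from 389 ± 4.79 to 274 ± 21.3, and the flap endonuclease gene Fen1, from 722 to 540 (named after its value was seen). Lig1, Pcna and Fen1 also serve DNA replication, and the proliferation list fell in the same arrays. A link between these falls was not tested.

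PR-DUB, the complex that MBD5 and MBD6 join, had 4 of 9 genes higher and 1 lower, with a median of 0.14. Foxk1, a forkhead factor that recruits the complex, rose from 29.8 ± 1.83 to 67.3 ± 3.12, a log2 change of 1.15 ± 0.08 (adjusted p = 0.00233). Bap1, the deubiquitinase, rose from 272 ± 9.65 to 428 ± 14.3 (0.65 ± 0.07, adjusted p = 0.00555) and Hcfc1, a bridging cofactor, from 423 ± 5.20 to 590 ± 14.3. Named after their values were seen, Kdm1b was higher at 0.38 (adjusted p = 0.0491) and Asxl1, the activator of BAP1, fell from 260 to 193.

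Of 8 genes related to the members by domain or by name, 2 rose and 1 fell, with a median of 0.16. Mbd3l1 and Mbd3l2, related by name, were dim, with means of 11.1 and 5.86 over the 6 arrays, and did not pass. Uhrf1, which reads hemimethylated DNA through its SRA domain, fell from 508 ± 9.48 to 330 ± 14.9, while its paralogue Uhrf2 rose from 120 ± 14.4 to 184 ± 11.6. Their log2 changes were -0.62 and 0.62. Baz2a, whose MBD-like domain belongs to a nucleolar remodelling complex, rose from 75.1 ± 8.45 to 117 ± 5.65.

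For Kaiso, the list of partners and described targets had 1 higher and 2 lower of 11, with a median of 0.18. Mta2 rose, as given above, and the cyclin D1 gene Ccnd1 and S100a4 fell, from 1485 ± 31.5 to 1135 ± 36.7 and from 6643 ± 61.4 to 4800 ± 141. Ctnnd1, the p120 catenin that binds Kaiso, was at 319 and 390 and just short of the threshold (adjusted p = 0.0511). Of the 37 other measured genes whose symbol starts with Zbtb, 5 rose and 2 fell, with a median of 0.11; the list includes Zbtb11os1, an opposite-strand transcript and no ZBTB gene, at a log2 change of 0.05. Zbtb21 rose from 88.8 ± 4.42 to 193 ± 6.68, Zbtb44 from 64.1, 69.3 and 72.5 to 134, 142 and 145 and Zbtb40 from 56.1 ± 5.63 to 105 ± 8.07. Named after their values were seen, Zbtb7a and Zbtb16 rose by 0.51 and 0.59, and Zbtb12 and Zbtb22 fell by 0.89 and 0.47; Zbtb16 and Zbtb12 were dim in a group, with changes of 0.34 and -0.59 with 16 added. The log2 changes of the 3 ZBTB members ran from -0.32 to 0.26 over their 9 probe sets. Among the 37 other symbols 30 did not pass either. Of the 37, 18.9% passed, against 22.4% of all genes and 29.6% of brighter probe sets, and 4 were dim. A difference between the members and these symbols was not tested. With 16 added, counts moved by over 1.5 times for NuRD (2 lower), the corepressors (5 lower), the repair genes (3 higher), the Kaiso list (4 higher), the MBD1 partners (2 higher) and the Zbtb symbols (9 higher).

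**Figure D3:**
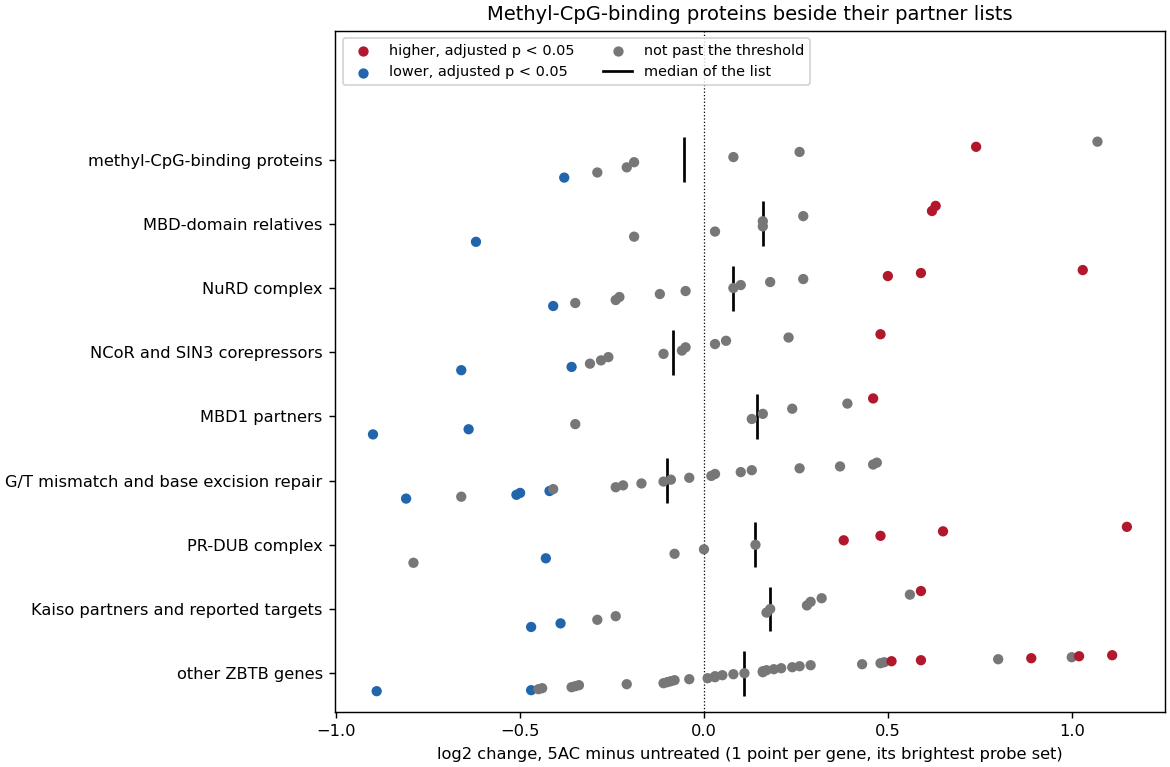
Log2 change, 5AC minus untreated, of each gene's brightest probe set, for the 8 measured members and 8 lists of partners, relatives and described targets. Colours give calls at an adjusted p under 0.05 (limma) and bars the list medians. Members run from -0.38 (Mbd3) to 1.07 (Mbd6), and each list has genes on both sides of 0.

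The chromosomal neighbours of the members were taken as the nearest measured gene on each side in the RefSeq gene table (GRCm38.p6), 18 in all. Of these, 2 rose and 2 fell, and the other 14 did not pass (limma), a share of calls like the 22.4% of all genes. Next to Mbd6 lies Ddit3, which encodes the stress-induced factor CHOP and read 219, 237 and 239 untreated and 877, 919 and 859 treated, a log2 change of 1.93 ± 0.07 (adjusted p = 0.000841). In the table the starts of the pair face away from each other, with 1274 bases between their nearest promoter windows. Dctn2, on the other side of Mbd6, was at 943 and 1063 (0.17 ± 0.07, adjusted p = 0.182). Mex3d, beside Mbd3, fell from 231 ± 5.39 to 134 ± 14.1, while Uqcr11 on the other side was at 0.06 ± 0.07. Beside Zbtb4, the acetylcholine receptor subunit gene Chrnb1 fell from 427 ± 27.1 to 224 ± 8.60. Rhox13, of the X-linked Rhox homeobox cluster beside Zbtb33, read -2.12, 0.677 and -0.541 untreated and 2.58, 3.80 and 3.17 treated, all near 0 although the call passed (log2 change 1.81, 0.24 with 16 added). For Mbd5, which has no probe set, the neighbours Orc4 and Epc2 had log2 changes of 0.24 and 0.22 (limma, adjusted p of 0.0648 and 0.142). A promoter window of Orc4, on the opposite strand, overlapped the first Mbd5 window by 260 bases. That of Epc2 was 205286 bases from the second Mbd5 window.

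**Figure D4:**
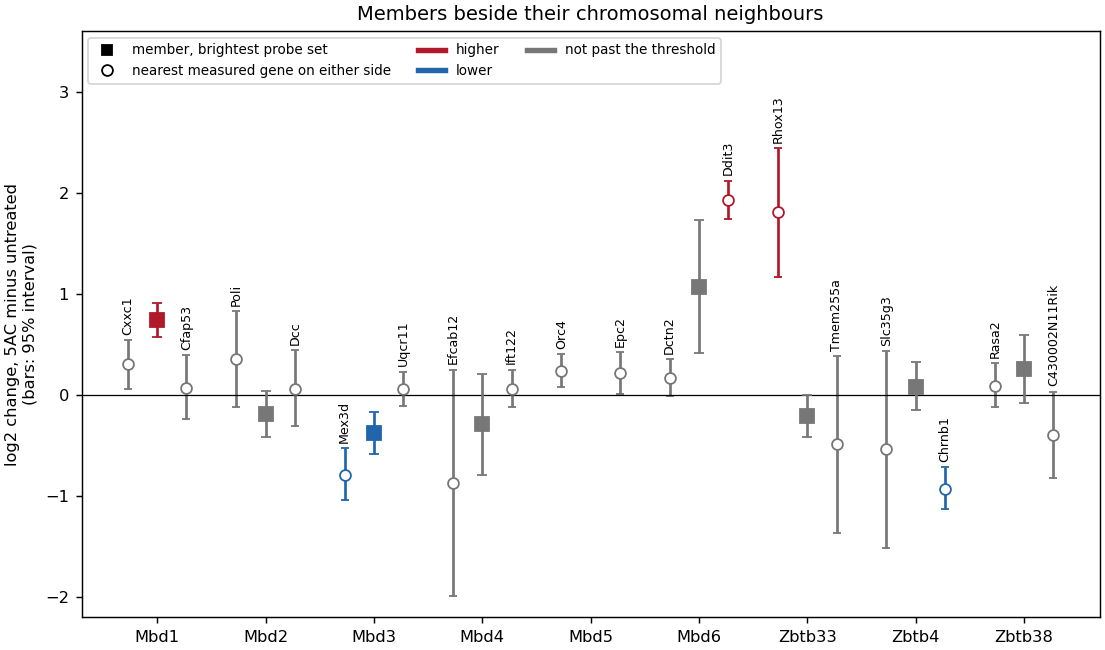
Log2 change, 5AC minus untreated, of each member's brightest probe set (squares) and of the nearest measured gene on either side (open circles), with 95% intervals over 3 arrays a group. Ddit3, beside Mbd6, lies at 1.93 and Chrnb1, beside Zbtb4, at -0.93, while 14 of the 18 neighbours did not pass, a share of calls like the 22.4% of all genes.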

How the data were processed

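The table the authors deposited holds linear intensity, with a column for each of 3 untreated and 3 5AC arrays. GCOS 1.4 and R 2.4.1 are named, without a role, per the submitters' processing notes; how probe sets were summarized and arrays scaled is not given in the sources used here. Between 2.42% and 2.60% of values per array were below 0 and were set to 0. Detection calls were not used, so a dim value does not show absence of RNA, and the number of arrays limits the precision.

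After 64 controls were left out, log2(intensity + 1) of 45037 probe sets was tested two-sided with limma 3.58.1 in R 4.3.3 (lmFit, eBayes, prior degrees of freedom 1.23), with Benjamini-Hochberg adjustment over all of them and a threshold of 0.05. Intervals are unadjusted. Of these, 34945 had 1 gene symbol, 932 several, and 9160 were unnamed here. Levels of different probe sets were used to rank them by brightness and to sum lists, and differences in level between probe sets were not tested.

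The members, gene lists and tests were chosen with earlier results of these data known. Named from each list were up to 3 genes with the largest change past the threshold, or else the 1 with the largest change; every member probe set and the nearest measured neighbours were given. Other genes were named after their values were seen. Promoter sequences are RefSeq's, GRCm38.p6. The procedure was tested on simulated data. Alternatives are listed in the closing section.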

Additional observations from a re-analysis of the deposited data

How the results depend on the processing

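Counts of calls depended on the settings more than log2 changes did. Against 1 member probe set higher and 1 lower, there were 2 and 2 with an offset of 16, 3 and 3 among probe sets brighter than the median only, and 2 and 3 with an intensity trend. With 1 probe set per gene fitted and adjusted alone, over 18193, 2 members were higher (Mbd6 joined, adjusted p = 0.0324), with quantile normalization 2 were lower and with median centring 2 were lower. At an adjusted p under 0.01, 0 were lower. Without single arrays 0 to 2 were lower, 0 in 5 of 6 fits. Over the array, 3671 probe sets higher and 3942 lower became 1265 and 1554 at an adjusted p under 0.01, 1681 to 2859 and 2058 to 2592 without single arrays, and 4850 and 4912, 5443 and 5477, or 5120 and 5368 with an offset of 16, an intensity trend or the brighter probe sets only. With 1 probe set per gene fitted alone, 2836 of 18193 were higher and 2517 lower, against 2109 and 1966 of the same probe sets when adjusted over all 45037. Robust moderation and array weights kept 1 member call each way.

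The replicate number as a block gave 0 calls in either direction for members and for the array (limma; 2 and 3 members, and 5906 and 6154 probe sets, at an unadjusted p under 0.05), with Mbd1 at an adjusted p of 0.0585. Deviations of same-numbered arrays from their group means correlated at -0.059, 0.030 and 0.013 over the probe sets brighter than the median. These correlations cannot decide whether same-numbered arrays were handled together, which the labels do not say. The Mbd1 call passed in the other 9 settings and in 6 of 6 fits without an array. Signs turned only in dim probe sets that were not called: Zbtb38 1438269_at became 0.0061 with an offset of 16, and without single arrays ran from -0.22 to 0.28. Without single arrays Mbd1 1430837_a_at ran from -0.58 to 0.21, Mbd1 1430838_x_at from -0.0695 to 0.57 and Zbtb4 1457293_at from -0.0683 to 0.12. The causes of these differences were not tested.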
